A study of Homo sapiens with 32 samples.

Results

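PANC-1 is an established cell line from a human pancreatic ductal adenocarcinoma. In these cells, 7141 sites on chromosomes 1 to 22 had a called N6-methyladenosine (m6A) peak in each of the 4 knockout libraries and in no control library. They were chosen by that presence and absence. A site began as peaks of the CFL1 knockout narrower than 2000 bp. Each had to overlap, by at least 1 bp, a peak of the other CFL1 knockout library and peaks of both METTL3 knockout libraries, and to overlap no control peak. Overlapping peaks were then joined. The 7141 sites stand among 168125 joined regions of all 6 libraries on chromosomes 1 to 22, and they cover 3.71 Mb. What separates the knockouts from control at these sites is therefore the rule itself and is described here with no test.

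The series maps m6A by sequencing fragments of total RNA pulled down with an antibody to the mark, beside input RNA. The CFL1 knockout, the METTL3 knockout and the control are cells of this line with no other agent or allele named in the labels. Each group has 2 antibody samples and 2 inputs, and each peak list joins 2 libraries called separately. The libraries are named here by the numbers in their peak names, CFL1 knockout 3 and 5, METTL3 knockout 3 and 5, and control 1 and 2. Those names carry the letters si, while the labels say knockout, and whether a knockout is 1 clone or a pool is not stated in them. Loss of either protein cannot be checked from peak lists. The labels do not say whether the libraries within a group are separate cultures, and their spread may be only technical.

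As background, m6A is the most abundant internal mark of messenger RNA. METTL3 is the catalytic subunit of the nuclear complex that writes it, and reader and eraser proteins bind or remove it. CFL1 is cofilin, which severs actin filaments, and actin and cofilin also act in the nucleus. An antibody peak needs both the mark and enough RNA, so a peak called in 1 condition and not in another can reflect more mark, more transcript, or a threshold. RNA levels and input reads were not examined here, and these cannot be told apart. The read depth behind the peaks is unknown.

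A line is used below for 1 called peak of 1 library. Its fold is the authors' enrichment over background and its −log10 q their measure of confidence. The value of a site in a library is that of the line with the highest −log10 q there. The 6 libraries hold 63859 to 79467 lines each. Among 28198 regions called in all 4 knockout libraries by the same rule without its control part, 6495, or 23.0%, had no control line, 9.37% had a line in 1 control library and 67.6% in both. That 6495 is lower than 7141 because joining more lines merges some of the sites with neighbours that touch control. Nothing is read from the 23.0%, which the rule fixes.

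The absence from control lay mostly at weak regions. Strength decides whether a line is called, so it is tied to the rule, and these shares are described with no test. The regions come from the same libraries and are not independent. Where the lowest −log10 q of the 4 knockout libraries was under 5, 44.7% of 5574 regions had no control line (exact 95% interval 43.4% to 46.0%, which covers counting error only). The share was 32.7% between 5 and 10, 23.5% between 10 and 20, 13.7% between 20 and 50, and 5.76% between 50 and 100. Of the 2712 regions with a lowest −log10 q of at least 100, 92 (3.39%, 2.74% to 4.14%) had no control line and 95.6% had a line in both control libraries. Regions with a line in 1 control library also became rarer with strength, at 15.4% in the weakest class and 0.996% in the strongest.

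**Figure D1:**
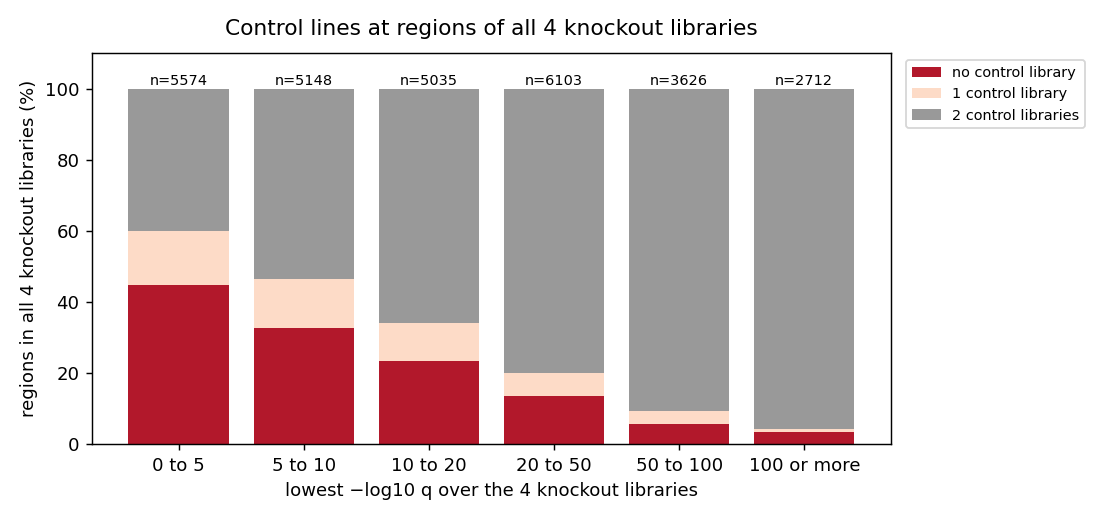
Bars show regions called in all 4 knockout libraries, in 6 classes of their lowest −log10 q over those libraries (x axis), as the percent with a line in no, 1 or 2 control libraries (y axis). The red part, regions with no control line, shrinks step by step to 3.39% of the strongest class.

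By library, the sites had a median fold of 5.45 in CFL1 knockout 3, 5.72 in CFL1 knockout 5, 5.81 in METTL3 knockout 3 and 5.84 in METTL3 knockout 5. Their median −log10 q was 15.7, 18.0, 17.9 and 15.2 in the same order of libraries. At the 19060 sites that were called in all 6 libraries by the same width limit, the median −log10 q was 37.7, 53.1, 59.3 and 52.8 in those 4 libraries, and 39.8 and 47.7 in control 1 and 2. Their median fold was 5.87, 6.63, 7.12 and 7.60 in the knockout libraries. So the knockout-only sites stood further below the shared sites in −log10 q than in fold.

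Within its own library, the median site ranked above 63.4%, 61.1%, 60.2% and 59.2% of all lines by −log10 q, again in that order of libraries. Of the 7141 sites, 2753 (38.6%) had a lowest −log10 q under 5 and 1234 (17.3%) had at least 20 in all 4 knockout libraries. In the opposite direction, 23642 sites were called in both control libraries and in no knockout library, and 2176 of those (9.20%) had at least 20 in both. The first share requires 4 libraries and the second 2. These control-only sites had a median fold of 4.15 in control 1 and 3.83 in control 2.

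**Figure D2:**
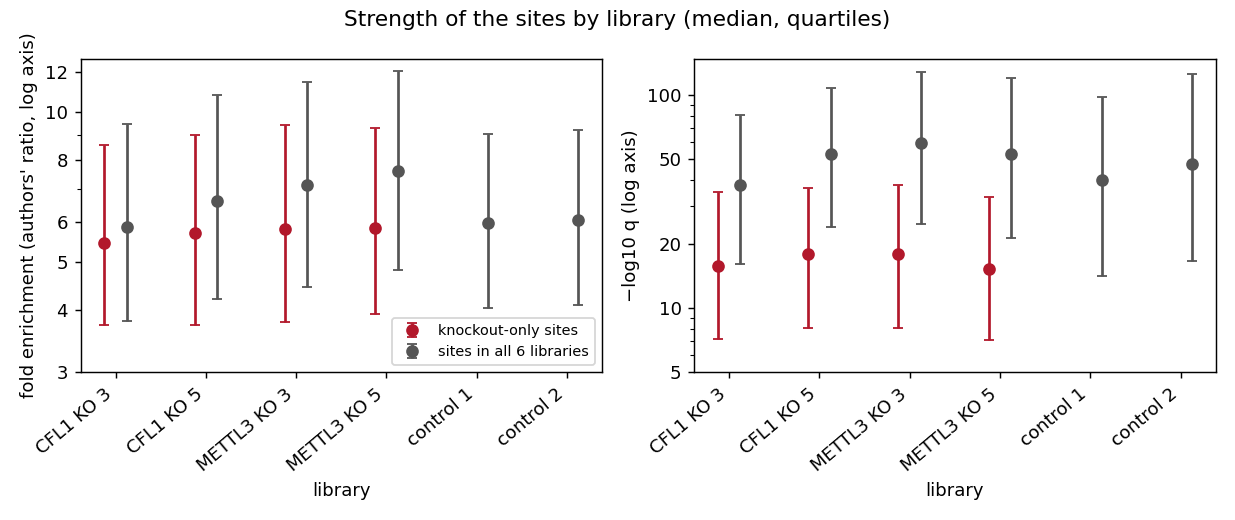
Points are medians and bars the quartiles over sites, of fold (left) and −log10 q (right), both on log axes, for each library on the x axis. The knockout-only sites (red) have a median −log10 q of 15.2 to 18.0, below the 37.7 to 59.3 of the sites shared by all 6 libraries (grey) in the same knockout libraries, while the quartile ranges of fold overlap widely.

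Sites were narrow. Their median width was 414 bp (quartiles 285 and 631 bp), and 27.7% were 300 bp or narrower. Sites in all 6 libraries had a median of 719 bp and 6.82% of them were that narrow, while control-only sites had a median of 355 bp. A wide line has more room to touch control, which the rule bars here and requires at the sites of all 6 libraries. Width is thus tied to the rule and is described with no test. Width hardly moved with strength, at 404 bp for sites with a lowest −log10 q under 5 and 402 bp between 50 and 100, and it was 499 bp for the 95 sites at 100 or more. After joining, 14 sites reached 2000 bp or more, up to 2705 bp.

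The summits of the 4 libraries, the position of the highest signal within a line, fell close together. The median distance between summits was 32 bp between the CFL1 knockout libraries, 27 bp between the METTL3 knockout libraries and 35 to 40 bp between libraries of different knockouts. Summits lay within 50 bp of each other at 61.0% of sites for the CFL1 pair, 64.6% for the METTL3 pair and 56.2% to 58.9% across the knockouts. At sites of all 6 libraries the median distances were 21, 14 and 31 to 39 bp. Summits lay more than 500 bp apart at 6.20% to 8.74% of the 7141 sites, by pair of libraries. For the sites of all 6 libraries that share was 6.35% to 10.5%. Over the 7141 sites, log2 fold correlated between the CFL1 knockout libraries with a Pearson r of 0.627 (Spearman 0.585), between the METTL3 knockout libraries with 0.687 (0.656), and across the knockouts with 0.453 to 0.530 (0.428 to 0.515). At the sites of all 6 libraries the Pearson r was higher, at 0.705, 0.761 and 0.600 to 0.647 in the same order. These are descriptions across sites, which share libraries and are not independent.

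The strongest sites were those with the highest −log10 q in their weakest library. First was chr5:92917263-92917951 (hg19), where −log10 q came to 788 and 779 for the CFL1 knockout libraries and to 556 and 506 for the METTL3 knockout libraries. Its fold was 18.5 and 23.3 in the CFL1 knockout and 25.4 and 23.9 in the METTL3 knockout. Both CFL1 libraries were thus higher in −log10 q and lower in fold, and the nearest control line was 724 bp away. By general knowledge of the human map, and not from an annotation used here, it lies at the NR2F1 locus, which encodes a nuclear receptor that acts as a developmental transcription factor. Second was chr15:82973762-82975147, with a fold of 37.5 and 51.4 in the CFL1 knockout and 69.6 and 51.4 in the METTL3 knockout. A knockout line at that site also reached a control line elsewhere, and the site itself lay 435 bp from control.

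Chromosome 2 held 3 of the first 12. At chr2:36760882-36761912 the fold was 11.4 and 18.3 in the CFL1 knockout and 9.63 and 10.5 in the METTL3 knockout, so both CFL1 libraries were above both METTL3 libraries. At chr2:87981832-87982244 it was 11.6 and 25.8 against 18.9 and 32.1, and at chr2:112025685-112026074 it was 9.92 and 9.49 against 8.51 and 17.7, both with overlap between the knockouts. On chromosome 5, chr5:38832176-38832470 was the narrowest of the 12 at 295 bp and nearly even, with a fold of 18.6 and 15.9 in the CFL1 knockout and 15.7 and 20.9 in the METTL3 knockout. Also on chromosome 5, chr5:40696566-40697412 had 14.2 and 14.6 against 23.1 and 16.4, with both METTL3 libraries on top.

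Of the other 5, chr18:77056724-77057434 had a fold of 20.5 and 27.5 in the CFL1 knockout and 21.4 and 19.5 in the METTL3 knockout, which overlap. At chr3:36439673-36440257 the fold was 14.4 and 30.1 in the CFL1 knockout, above 13.6 and 14.0 in the METTL3 knockout, and CFL1 knockout 5 stood apart from the other 3. The site chr19:23505465-23507322 was the widest, at 1858 bp, and lay farthest from control, at 14258 bp. Its fold was 30.1 and 20.6 in the CFL1 knockout, above 16.5 and 16.8 in the METTL3 knockout. At chr9:140163012-140163384 it was 15.1 and 8.41 against 10.5 and 17.9. The site chr8:128909537-128910499 had the lowest fold of the 12, 5.43 and 4.77 in the CFL1 knockout and 4.86 and 8.76 in the METTL3 knockout, with a −log10 q of 267 or more in all 4 libraries and a control line 107 bp away. By the same general knowledge it lies in PVT1, a long noncoding RNA gene downstream of MYC.

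**Figure D3:**
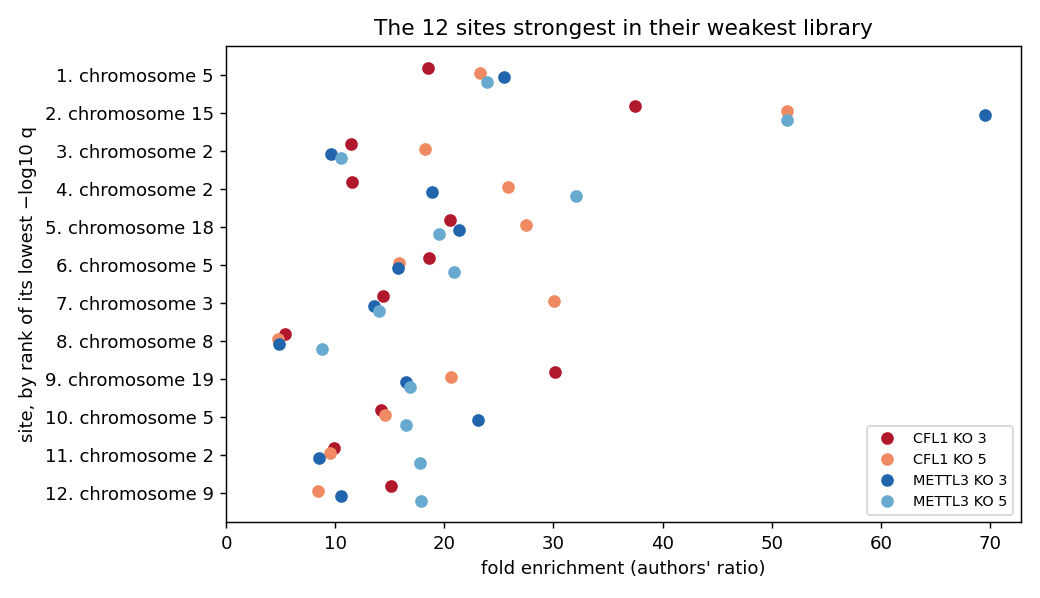
The 12 sites with the highest lowest −log10 q run down the y axis by rank and chromosome, and each point is the fold (x axis) in 1 of the 4 knockout libraries. Ranks 3, 7 and 9 have both CFL1 knockout points right of both METTL3 knockout points, ranks 1 and 10 have the reverse, and fold spans 4.77 at rank 8 to 69.6 at rank 2.

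Several sites were strong in 1 knockout and weaker, though called, in the other. They were taken by a rule, among sites with a lowest −log10 q of at least 20 whose libraries separated by knockout, and are given with no test. The largest excess of the CFL1 knockout was at chr8:1797432-1798964, with a fold of 69.5 and 34.0 in the CFL1 knockout and 8.05 and 7.12 in the METTL3 knockout, a difference of 2.68 in mean log2 fold. Next came chr8:9628247-9629853 with 73.5 and 88.1 against 17.5 and 12.4, chr5:102324134-102324438 with 29.1 and 43.6 against 7.46 and 5.80, and chr9:45579194-45579665 with 26.5 and 97.1 against 11.5 and 8.24. No knockout line at these 4 sites reached a control line, and they lay 1553 to 24987 bp from control.

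In the other direction the rule took 4 sites, and at 3 of them the METTL3 knockout values belong to wide lines whose summits lie outside the site. At chr16:2615540-2615912, 373 bp wide, the CFL1 knockout lines had a fold of 10.4 and 13.5, while the METTL3 knockout values of 42.0 and 108 came from lines 5122 and 5159 bp wide with summits 1761 and 1760 bp away. At chr2:121745610-121746099 the fold was 5.39 and 4.88 in the CFL1 knockout, and 29.7 and 22.9 in METTL3 knockout lines 4090 and 4089 bp wide with summits 1883 and 1839 bp outside the site. At chr10:99079066-99079380 it was 6.51 and 7.14 in the CFL1 knockout, and 23.7 and 49.9 in METTL3 knockout lines 1781 and 1645 bp wide with summits 728 and 731 bp outside. These METTL3 knockout values describe the wide lines, which also reached a control line elsewhere, and not the 3 narrow sites. The fourth, chr19:616334-617125, had all 4 summits inside and a fold of 2.79 and 2.81 in the CFL1 knockout against 11.6 and 13.5 in the METTL3 knockout. At the 4 sites where the CFL1 knockout was higher, all summits lay inside the site.

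Over all 7141 sites, the rule did not use how the folds of the knockouts compare. It does start from CFL1 knockout lines and limits width and control overlap only for them, so the comparison is not free of the choice. Both CFL1 knockout libraries had a higher fold than both METTL3 knockout libraries at 1492 sites (20.9%), against 16.3% of all 28198 regions in the 4 knockout libraries. Both METTL3 knockout libraries were above both CFL1 knockout libraries at 1864 sites (26.1%), against 32.0% of those regions. At the other 3785 sites (53.0%) the knockouts overlapped. The mean log2 fold differed by at least 2-fold at 1285 sites (18.0%), against 15.6% of those regions. It was higher in the CFL1 knockout by that much at 555 sites (7.77%), against 5.16% of all regions, and higher in the METTL3 knockout at 730 sites (10.2%), against 10.4%. Starting from METTL3 knockout lines, the CFL1 knockout libraries were both higher at 1666 sites and the METTL3 knockout libraries at 1697. The share over all regions from that start is not given, so nothing is read from these 2 counts. Single sites were not tested.

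Where the strongest line of a library has its summit outside the site, its fold is not that of the site. This was so at 209 sites (2.93%) in CFL1 knockout 3 and 231 (3.23%) in CFL1 knockout 5. In METTL3 knockout 3 it was so at 612 (8.57%) and in METTL3 knockout 5 at 542 (7.59%). The sites are built from CFL1 knockout lines, while a METTL3 knockout line need only overlap by 1 bp. The rule thus favours CFL1 knockout summits inside the site, and nothing is read from the difference. At the 6117 sites (85.7%) with all 4 summits inside, the CFL1 knockout libraries were both higher at 1353 and the METTL3 knockout libraries both higher at 1522. The share over all regions under that condition is not given, so nothing is read from these counts.

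The median log2 fold over the sites was 2.45 and 2.52 in the CFL1 knockout and 2.54 and 2.55 in the METTL3 knockout, a difference of -0.062 in the mean of the library medians. An exact permutation of the libraries gave a two-sided p of 0.333, the smallest that 2 against 2 allow, so the difference could not pass 0.05 at any size. Its direction did not hold. Starting from METTL3 knockout lines gave 0.031, leaving out METTL3 knockout 5 gave 0.035, and −log10 q in place of fold gave 0.028 on the log2 scale. At the sites with all 4 summits inside it was -0.0034. Relative to the sites of all 6 libraries, where the difference was -0.24, the CFL1 knockout was higher by 0.17 (exact p = 0.333). The rule starts from CFL1 knockout lines and limits only their width, so the choice of sites is not even between the knockouts.

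**Figure D4:**
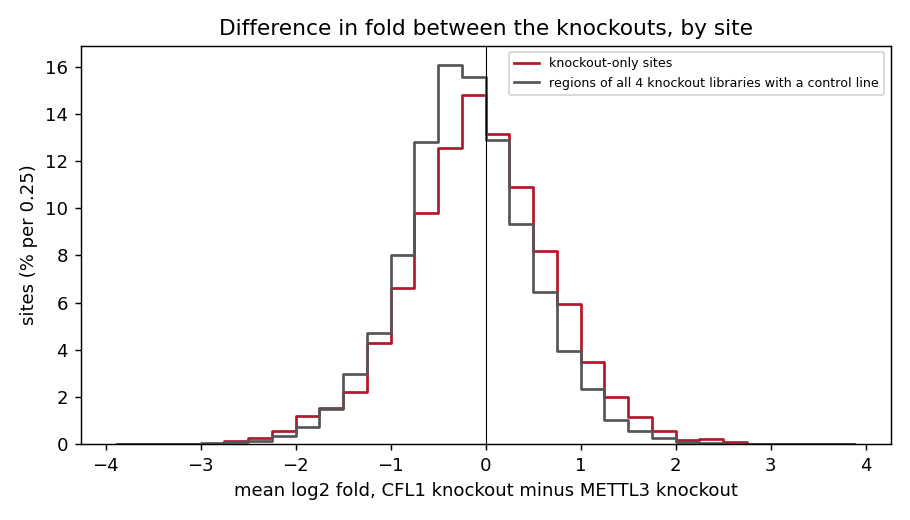
The x axis is the mean log2 fold of the CFL1 knockout minus that of the METTL3 knockout at a site, and the y axis the percent of sites per step of 0.25. The curve of the knockout-only sites (red, median -0.071) peaks at 14.8% between -0.25 and 0. That of regions in all 4 knockout libraries with a control line (grey) peaks at 16.1% between -0.5 and -0.25. The red curve is the higher one at every step from 0 to 3, the lower one from -1.5 to 0, and the higher one from -2.75 to -1.5.

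Most sites, 77.4%, lay within 10 kb of a control line. The nearest control line was a median of 2020 bp away (quartiles 504 and 8490 bp, where 1 bp means adjacent). It was within 100 bp at 413 sites (5.78%) and within 1 kb at 2620 (36.7%). For the 23642 control-only sites, the median distance to a knockout line was 3968 bp and 22.7% lay within 1 kb. That distance is to lines of 4 libraries, while control has 2. To CFL1 knockout lines alone it was 5570.5 bp with 17.7% within 1 kb, and to METTL3 knockout lines alone 5713.5 bp with 17.0%. So knockout-only sites lay closer to a line of the other group than control-only sites did, by each of these measures of the median. The control libraries also hold more lines on chromosomes 1 to 22, 75301 and 77104, against 61237 to 70118 in the knockout libraries. More lines shorten the distances to control, and the medians are not adjusted for this.

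At 1147 sites (16.1%) some knockout line that overlaps the site was long enough to reach a control line outside it. Such lines came from CFL1 knockout 3 at 339 sites and CFL1 knockout 5 at 433, and from METTL3 knockout 3 at 719 and METTL3 knockout 5 at 635. The rule bars control overlap and limits width only for the CFL1 knockout lines that form a site. These counts therefore cannot be compared between the knockouts. Lines reaching control touched 42.6% of the sites within 1 kb of control and 1.07% of those between 1 and 10 kb. Without them, 5994 sites remained, 25.1% of them within 1 kb of a control line, and the difference between the knockouts was -0.011 in median log2 fold. A knockout line of 2000 bp or more overlapped 377 sites (5.28%).

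Sites at the edges of the rule were close calls. Sites adjacent to a control line made up 0.0700% of all, and 3 of them, the first in site order, are named. They were chr11:36188887-36189194, chr11:47035596-47035946 and chr17:43718939-43719142, with a lowest −log10 q of 6.38, 115 and 3.98. Just outside the rule, the lines chr10:121212552-121212912, chr1:150902308-150902659 and chr16:47327542-47327891 overlapped control by 1 bp. In all, 90 sites lay within 20 bp of a control line, and 132 lines of the CFL1 knockout otherwise fitting the rule overlapped control by 20 bp or less. For width, the widest lines inside were 1996, 1994 and 1987 bp and the narrowest outside were 2008, 2018 and 2019 bp. The limit left out 69 lines.

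A smaller group lay far from any control peak. The nearest control line was more than 100 kb away at 387 sites (5.42%), against 30 of the 23642 control-only sites (0.127%) for the nearest knockout line, 64 for CFL1 knockout lines alone and 92 for METTL3 knockout lines alone. These 387 sites were narrower, with a median of 297 bp. Their median fold was 7.01 and 7.48 in the CFL1 knockout and 7.71 and 7.60 in the METTL3 knockout, and for the 2620 sites within 1 kb of control it was 5.17 and 5.44 in the CFL1 knockout and 5.74 and 5.73 in the METTL3 knockout. Their median −log10 q was lower, at 12.7, 14.3, 13.6 and 11.5 against 16.5, 19.4, 20.8 and 17.5 in the same libraries. Of the 387, 193 had a lowest −log10 q under 5 and 49 had at least 20.

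By chromosome, the distant sites made up 12.1% of the sites on chromosome 4, 12.1% on chromosome 18, 11.1% on chromosome 3 and 10.3% on chromosome 8, but 0.561% on chromosome 19, and none of the 108 sites on chromosome 21 was among them. Among sites with a lowest −log10 q of at least 20, the farthest was chr3:86062591-86062944, 932961 bp from a control line, with a fold of 14.1 and 22.8 in the CFL1 knockout and 8.48 and 13.7 in the METTL3 knockout. Next was chr7:84628804-84629210 at 804484 bp, with 11.2 and 23.6 against 10.4 and 22.8.

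The third was chr3:181429564-181431360, 1797 bp wide and 725217 bp from a control line. Its −log10 q was 102 and 210 in the CFL1 knockout and 201 and 307 in the METTL3 knockout, and its fold was 21.1 and 35.1 against 13.1 and 45.5, so the knockouts overlapped. By general knowledge of the human map it lies on SOX2, a single-exon gene for a transcription factor of pluripotent and neural progenitor cells. No control line was called over it or near it. RNA of the locus was not examined here, so a transcript absent from control cells and an unmarked one cannot be told apart.

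**Figure D5:**
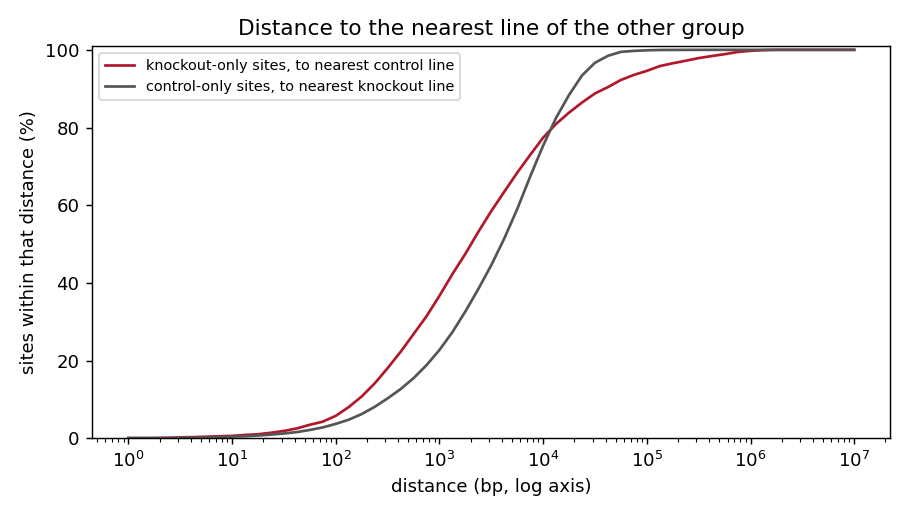
The curves give the percent of sites (y axis) within a given distance in bp (x axis, log) of the nearest line of the other group, red for the knockout-only sites to control and grey for the control-only sites to the knockouts. The red curve is above the grey one at 1 kb (36.7% and 22.7%) and below it at 100 kb, where it still misses 5.42% of sites against 0.127%.

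Sites were mostly single. Joined at distances up to 10 kb, 4728 of the 7141 sites (66.2%) stood alone, 723 groups held 2 sites and 267 held 3 or more. Among the 19060 sites of all 6 libraries 41.7% stood alone, and among the 23642 control-only sites 28.9%, but these sets are larger, which shortens the distances. The largest groups held 8 sites each, at chr12:11442288-11453767 and chr16:18470793-18490636. The first spanned 11.5 kb with no control line in it and none closer than 9966 bp to a site, and its sites had a lowest −log10 q of 2.23 to 7.64. The second lay among 6 control lines.

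Of the groups of 7 sites, chr16:33950010-33958722 lay 100992 bp or more from control, with a lowest −log10 q of 5.06 to 37.1 and a median fold of 7.13 to 20.1 by library. Another pair, chr4:49282506-49306125 and chr4:49317847-49331316, lay next to each other and held 3 and 2 control lines. The group chr16:1138311-1164767 lay among 10 control lines, with its sites 340 to 3579 bp from control. By general knowledge the chromosome 4 pair and chr16:33950010-33958722 are near the centromeres, where repeated sequence makes short reads hard to place. Mapping was not examined, and its part in these peaks was not tested.

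By chromosome, 1 held most sites, 631 (8.84%), against 10.3% of the sites of all 6 libraries. Chromosome 4 was the most over-represented, with 305 sites (4.27% against 3.32%, a ratio of 1.29), followed by 7 (6.69% against 5.72%) and 8 (3.68% against 3.18%). The lowest ratios were on chromosome 18 (1.39% against 1.77%, 0.784) and 6 (4.40% against 5.47%, 0.804). Of the regions in all 4 knockout libraries, the share with no control line ran from 19.2% on chromosome 6 to 27.7% on chromosome 4. Median fold over sites was lowest on chromosome 17 (4.92) and 19 (5.02) and highest on chromosome 8 (6.79).

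Among lines of high confidence, the sites were a minority. Of lines narrower than 2000 bp with a −log10 q of at least 100, 350 of 3907 (8.96%) in CFL1 knockout 3 and 353 of 5365 (6.58%) in CFL1 knockout 5 were at the sites. In the METTL3 knockout these were 372 of 5923 (6.28%) and 307 of 5559 (5.52%). At 200 or more they were 95 of 841 (11.3%) in CFL1 knockout 3 and 86 of 1501 (5.73%) in CFL1 knockout 5. In the METTL3 knockout they were 73 of 1813 (4.03%) and 57 of 1821 (3.13%). CFL1 knockout 3 thus had the highest share and also the fewest lines at this cut. The sites are built from CFL1 knockout lines, so the shares cannot be compared between the knockouts. The sites of all 6 libraries took 86.8% to 93.5% of the lines at 200 or more.

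The highest single values, chosen after they were seen, were not all shared by the libraries. At chr15:84872247-84872638 the −log10 q was 33.6 and 11.1 in the CFL1 knockout, and 2.60 and 1372 in METTL3 knockout 3 and 5, the last from a line 3549 bp wide. At chr19:50999410-50999831 CFL1 knockout 3 had 919, from a line 4110 bp wide, against 14.1 in CFL1 knockout 5 and 10.5 and 21.9 in the METTL3 knockout. At both, 1 wide line set the value, and it does not describe the narrow site. By contrast chr3:12489532-12490334 was strong in all 4, with a fold of 89.1 and 72.1 in the CFL1 knockout and 50.5 and 39.5 in the METTL3 knockout, 191 bp from control.

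Other loci that general knowledge places at these sites, also picked after their values were seen, leaned to 1 knockout. The site chr13:21951331-21951919, at ZDHHC20, a gene for a palmitoyltransferase, had a fold of 35.3 and 41.1 in the CFL1 knockout and 12.4 and 11.3 in the METTL3 knockout. The site chr20:61376367-61377003, at NTSR1, the gene for a neurotensin receptor, had 9.01 and 8.74 against 18.5 and 13.5. The site chr12:54374078-54374507, in the HOXC cluster of developmental transcription factor genes, had 14.4 and 12.3 against 15.5 and 40.2. These 3 lay 315 to 909 bp from a control line.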

How the data were processed

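Per the submitters' processing notes, reads were aligned with STAR to hg19 and peaks were called with MACS2, and bedtools is also named. Their versions and settings are not stated in these notes. The deposited value columns used here are fold (a ratio), −log10 q and the summit position, all the authors' own. No annotation or genome of that build was used, so sites have coordinates, 1-based, and no sequence or gene placement. The RefSeq table at hand (GRCh38.p14) served only to check that genes named from general knowledge lie on the same chromosome.

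Overlaps used bedtools 2.31.1 with at least 1 bp; the functions were tested on simulated intervals. Named sites are the 12 with the highest lowest −log10 q, the 4 with the largest difference between knockouts in each direction and the 3 farthest from control among sites with at least 20, and the sites at the limits. Others are marked as chosen after their values were seen. The sites and lists were chosen with earlier results of these data known. Of 32 samples, 12 stand behind the lists, and 20 (nuclear RNA, cytochalasin D) did not enter. Groups come from the sample titles.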

Additional observations from a re-analysis of the deposited data

How the results depend on the processing

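Both knockouts carry the numbers 3 and 5 in their peak names, and no label says that these pair the libraries. With them as a replicate block, the difference was -0.093 for number 3 and -0.031 for number 5, with a mean of -0.062 and an exact two-sided sign-flip p of 0.5, the smallest that 2 pairs allow. The differences of library 3 minus library 5 correlated over sites with r = -0.048 between the knockouts. The block and the settings on lines reaching control and on summits were chosen after seeing the data. The number of sites stayed within 1.5 times 7141 in 13 of 14 alternatives and came to 2541 with knockout lines of −log10 q of at least 10, where the CFL1 knockout was higher at 449 sites and the METTL3 knockout at 722. Leaving out each library gave 8263 to 9067 sites, 1719 to 3330 higher in the CFL1 knockout and 2164 to 3867 higher in the METTL3 knockout. The counts by knockout were highest where a knockout has 1 library left, by construction. Shares over all regions under these settings are not given, so nothing is read from the counts by knockout. The difference between the knockouts, -0.062, turned to 0.031 from METTL3 knockout lines, 0.028 in −log10 q and 0.17 relative to sites of all 6 libraries. Leaving out each library gave -0.12 to 0.035, the highest without METTL3 knockout 5. The share within 1 kb of control was 43.7% with overlap of at least 50% of the shorter line, 39.8% at −log10 q of at least 10, 33.7% with no control line within 100 bp, 25.1% where no knockout line reaches control, 31.2% with all summits inside the site, and 30.0% to 36.2% without each library. Of these settings, the overlap of 50% also loosens the control part of the rule. The settings on control within 100 bp and on lines reaching control remove sites near control by construction. Median width ran from 317 to 430 bp without each library. It was 317 and 318 bp without CFL1 knockout 3 and 5, where sites are formed from lines of 1 library only. For the other shifts the cause was not tested. The motif and gene alternatives were not run, since no hg19 genome was used here. Depth is unknown, so an absent control line may lie just under a threshold.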

Other observations

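Chromosome X, outside the rule, held 338 further sites called in all 4 knockout libraries and in no control library. Of its 1012 regions in all 4 knockout libraries, 30.3% had no control line, above the 19.2% to 27.7% of chromosomes 1 to 22. Their median fold was 6.01 and 6.53 in the CFL1 knockout and 6.95 and 7.10 in the METTL3 knockout, and their median width 431.5 bp. The difference between chromosomes was not tested.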
